A study of Mus musculus with 6 samples.

Results

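The canonical NF-kB pathway was examined through 10 genes in cultured mouse aortic smooth muscle cells given the cytokine TWEAK or vehicle. They are the subunit genes Nfkb1, Rela and Rel, the classical inhibitor genes Nfkbia, Nfkbib and Nfkbie, the atypical IkB genes Nfkbiz, Nfkbid and Bcl3, and Tnfaip3, which encodes the enzyme A20. They were picked by gene symbol for their role in the pathway, with earlier results of these data known, and all 10 were found among the 14927 genes of the deposited table. The cells were vascular smooth muscle cells of wild-type C57BL/6 mice, taken from the aorta and used at passages 3 to 7. All cultures were first deprived of serum for 24 h. The TWEAK group (3 libraries) then received 100 ng/mL recombinant TWEAK in 0.5% serum for 24 h, and the vehicle group (3 libraries) received vehicle in the same serum for the same time. The libraries are numbered 1 to 3 in each group, and the table's column headers give these numbers as experiments. Whether the experiments used separate animals is not in the labels, so p-values measure the spread among these experiments, which may be technical.

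NF-kB is a family of dimeric transcription factors that rest in the cytoplasm bound to IkB proteins. In the canonical pathway a cytokine receptor activates the IkB kinase, the classical IkB proteins are phosphorylated and destroyed, and dimers of RelA, c-Rel and p50 enter the nucleus. Several IkB genes and the gene for A20, an enzyme that edits ubiquitin chains upstream of the kinase, are themselves targets of NF-kB and so form negative feedback loops. In smooth muscle of the artery wall the pathway is known for switching on chemokine, adhesion and protease genes.

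After 24 h of TWEAK, 5 of the IkB and A20 genes rose, and none of the 3 subunit genes passed the test. Nfkbie rose 5.48-fold, Tnfaip3 3.78-fold, Bcl3 3.14-fold, Nfkbia 3.13-fold and Nfkbib 1.40-fold. For Nfkb1, Rela, Rel, Nfkbiz and Nfkbid the test was not passed. In all, 5 of the 10 genes rose and none fell, where 8.11% of all 14927 genes tested rose and 5.55% fell. The median log2 fold change was 0.57 for the 10 genes and 0.02 for all genes. The test was limma on log2(normalized count + 1) with the experiment as a block, and a call is a Benjamini-Hochberg adjusted p under 0.05 over all genes. Unless the authors' table or another setting is named, fold changes here are on that log2 scale, on which changes of low genes can come out too small. Of the 10 genes, 4 rose with a log2 fold change of at least 1, as did 3.08% of all genes. Without the block, limma called 0 of the 10, where it called 0.0201% of all genes (3 genes). At an unadjusted p under 0.05 without the block, 3 of the 10 were higher, against 6.04% of all genes. On the recovered reads with the block, edgeR called 5 of the 10 (7.51% of all genes were called higher) and DESeq2 called 7 (10.8%).

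Promoter sequences of the 5 genes that rose, and of Rel, are shown first, because NF-kB binds DNA at kappaB sites and several of these genes are textbook NF-kB targets. They come from RefSeq (build GRCm38.p6) and run 5′ to 3′ on the strand of the gene. Capitals mark matches of 10 letters to the kappaB consensus on either strand, with overlapping matches merged. The stretches for Nfkbia (chr12:55492648-55492897, minus strand), Nfkbie (chr17:45555450-45555699, plus strand), Tnfaip3 (chr10:19015411-19015660, minus strand), Nfkbib (chr7:28766645-28766894, minus strand) and Rel (chr11:23770970-23771219, minus strand) are the 250 bases before the start of transcription. For Bcl3 (chr7:19822734-19822763, minus strand) the 30 bases around its match are given. Nfkbib is shown as a gene that rose with no match, and Rel as a gene with matches that did not pass the test.
Nfkbia: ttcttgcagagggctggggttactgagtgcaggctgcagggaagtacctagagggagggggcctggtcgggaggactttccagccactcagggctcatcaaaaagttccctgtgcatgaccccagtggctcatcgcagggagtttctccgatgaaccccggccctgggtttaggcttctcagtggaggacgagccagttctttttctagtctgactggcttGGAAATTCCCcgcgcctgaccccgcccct
Nfkbie: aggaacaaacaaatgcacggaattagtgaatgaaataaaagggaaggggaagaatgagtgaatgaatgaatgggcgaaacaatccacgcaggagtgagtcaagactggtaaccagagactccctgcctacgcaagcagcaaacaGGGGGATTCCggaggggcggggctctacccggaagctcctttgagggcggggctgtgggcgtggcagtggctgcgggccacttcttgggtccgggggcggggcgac
Tnfaip3: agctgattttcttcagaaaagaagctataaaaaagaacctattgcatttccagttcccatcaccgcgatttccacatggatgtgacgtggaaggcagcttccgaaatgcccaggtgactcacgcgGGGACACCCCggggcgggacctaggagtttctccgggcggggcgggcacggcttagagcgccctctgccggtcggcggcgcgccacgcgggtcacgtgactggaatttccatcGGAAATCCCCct
Nfkbib: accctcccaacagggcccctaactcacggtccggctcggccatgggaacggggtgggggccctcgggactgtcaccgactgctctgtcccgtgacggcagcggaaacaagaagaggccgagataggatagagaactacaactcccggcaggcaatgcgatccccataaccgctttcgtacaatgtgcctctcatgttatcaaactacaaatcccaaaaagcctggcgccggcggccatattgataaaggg
Rel: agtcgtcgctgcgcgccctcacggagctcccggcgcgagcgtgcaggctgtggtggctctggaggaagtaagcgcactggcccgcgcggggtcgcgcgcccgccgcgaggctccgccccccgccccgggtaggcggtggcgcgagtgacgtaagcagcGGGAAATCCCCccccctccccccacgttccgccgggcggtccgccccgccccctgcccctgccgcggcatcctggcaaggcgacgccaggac
Bcl3: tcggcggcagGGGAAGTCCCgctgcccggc

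The search covered both strands of windows from 250 bases before to 50 after each start, and overlapping matches were counted separately. Nfkbia, Nfkbib, Nfkbie, Nfkbid, Bcl3, Tnfaip3, Rela and Rel (8 of the 10 genes) have at least 1 window in the RefSeq table, and Nfkb1 and Nfkbiz were not searched. At least 1 match was found for 6 of the 8 genes, where 6.55% of the 10828 tested genes with a window have one. Counted by window, 4.51% of all 32851 windows hold a match. The match of Nfkbia, GGGAATTTCC on the opposite strand, begins 29 bases before the start. Tnfaip3 has matches beginning 125 and 12 bases before the start in the first of its windows, and Nfkbie has 1 beginning 106 bases before. Rel has 3 overlapping matches, the first beginning 92 bases before the start. For Bcl3 the match begins 3 bases after the start. Of the 3 windows of Nfkbid, 1 holds 2 matches, and this gene did not pass the test. Nfkbib, which rose least among the called genes, and Rela, which did not pass, had no match in their windows. Of the 859 genes called higher that have a window, 10.4% hold a kappaB match in at least 1 window. A match describes these letters and not binding.

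Facts of the whole experiment bear on how these values are read. The libraries held 62632273 to 82118717 reads over the listed genes. The 10 genes had between 44 reads (Nfkbid, vehicle library 3) and 11704 reads (Nfkbia, TWEAK library 2), so the counting precision is lowest for Nfkbid. Tnfrsf12a, which encodes the TWEAK receptor Fn14, had 6018, 7464 and 5058 normalized counts in TWEAK libraries 1, 2 and 3, against 6943, 10439 and 7461 in the vehicle libraries. It had a log2 fold change of -0.42 (SE 0.09, limma adjusted p = 0.0407, lower in 3 of 3 experiments), and the call was lost without the block, with edgeR (adjusted p = 0.0561), and without experiment 1 (0.0587) or 3 (0.252). The smooth muscle label was checked against 6 markers, Acta2, Myh11, Tagln, Cnn1, Smtn and Myocd, all of which were present. Their summed normalized counts were 183609 to 258207 with TWEAK and 306897 to 358118 with vehicle, and all 6 fell (none was called without the block). The part of this fall in the changes of the 10 genes was not tested. Transcripts of other cell types were present too, and those of macrophages and endothelial cells differed mainly by experiment. The sum of 6 macrophage markers was 46940, 7814 and 3144 in TWEAK libraries 1, 2 and 3, and 48367, 8020 and 2887 in the vehicle libraries. The sum of 6 endothelial markers was 6325, 42053 and 23091 with TWEAK and 7069, 48221 and 24937 with vehicle. None of the 6 markers of either list passed the test between treatments. Of 6 fibroblast markers, 2 rose and 1 fell. Their sum was 33099, 94380 and 81340 with TWEAK and 26750, 60997 and 72388 with vehicle, and so higher with TWEAK in each experiment. None of the 5 T and B cell markers is among the listed genes. Every listed gene had a mean of at least 14.4 normalized counts and no value of 0, so genes outside the list may still have had some reads. Shares of all genes are therefore shares of the listed genes. The RNA is from bulk cultures, so a change in the share of a cell type and a change in RNA per cell cannot be told apart.

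Among the subunits, Rela encodes the main activating partner of canonical dimers. Its normalized counts were 5169, 6672 and 6644 in TWEAK libraries 1, 2 and 3, against 4301, 6626 and 5841 in vehicle libraries 1, 2 and 3. The groups overlapped, and in experiment 2 both libraries were almost equal. TWEAK over vehicle, the log2 fold change of Rela was 0.15 (SE 0.08, 95% interval -0.04 to 0.35, limma adjusted p = 0.256). Rela passed the test when experiment 2 was left out (log2 fold change 0.23, limma adjusted p = 0.0177), a fit that called 26.1% of all genes. It did not pass without experiment 1 (0.555) or 3 (0.641).

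Nfkb1 encodes the precursor of p50, RelA's partner in the classical dimer. It had 7078, 8329 and 9045 normalized counts in the TWEAK libraries and 6164, 6707 and 6906 in the vehicle libraries. Every TWEAK library lay above every vehicle library, as for 4 of the 10 genes (Nfkb1, Nfkbia, Nfkbie and Tnfaip3) and 8.6% of all genes tested. For none of the 10 did every TWEAK library lie below, as for 7.42% of all genes. Its log2 fold change of 0.30 (SE 0.07, 95% interval 0.12 to 0.48) had an adjusted p just above the threshold (limma, 0.0511). It was called in the authors' deposited table (log2 fold change 0.30, adjusted p = 0.0307), with DESeq2 (0.0253), with cyclic loess scaling (0.0472) and with a minimum mean of 100 (0.0497). It was not called with edgeR (0.0555). Nor did limma call it with upper quartile scaling (0.0563), with 10 added to the counts (0.0503) or without the block (0.564). It was also called without experiment 2 (limma adjusted p = 0.00234), where 26.1% of all genes were called, but not without experiment 1 (0.112) or 3 (0.351).

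Rel encodes c-Rel, a subunit best known from lymphocytes. It was scarce, at 271, 175 and 293 normalized counts with TWEAK and 229, 108 and 227 with vehicle. The groups overlapped because experiment 2 was low in both, and within each experiment the TWEAK library was the higher one. Rel had a log2 fold change of 0.43 (SE 0.15, 95% interval 0.06 to 0.80, limma adjusted p = 0.123). Levels per kilobase of transcript place the subunits side by side. Rela averaged 2269 ± 317, Nfkb1 1980 ± 242 and Rel 33.0 ± 8.44 normalized counts per kilobase with TWEAK (SD, n = 3). With vehicle the same levels were 2058 ± 435 for Rela, 1601 ± 93.2 for Nfkb1 and 25.2 ± 9.25 for Rel (SD, n = 3). Per kilobase Nfkb1 was below Rela in every library, at 0.903, 0.824 and 0.898 times Rela with TWEAK and 0.946, 0.668 and 0.780 times with vehicle, which was not tested. In normalized counts not divided by length, Nfkb1 was above Rela in every library. The order therefore depends on the transcript lengths used, 4117 bases for Nfkb1 and 2716 for Rela.

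**Figure D1:**
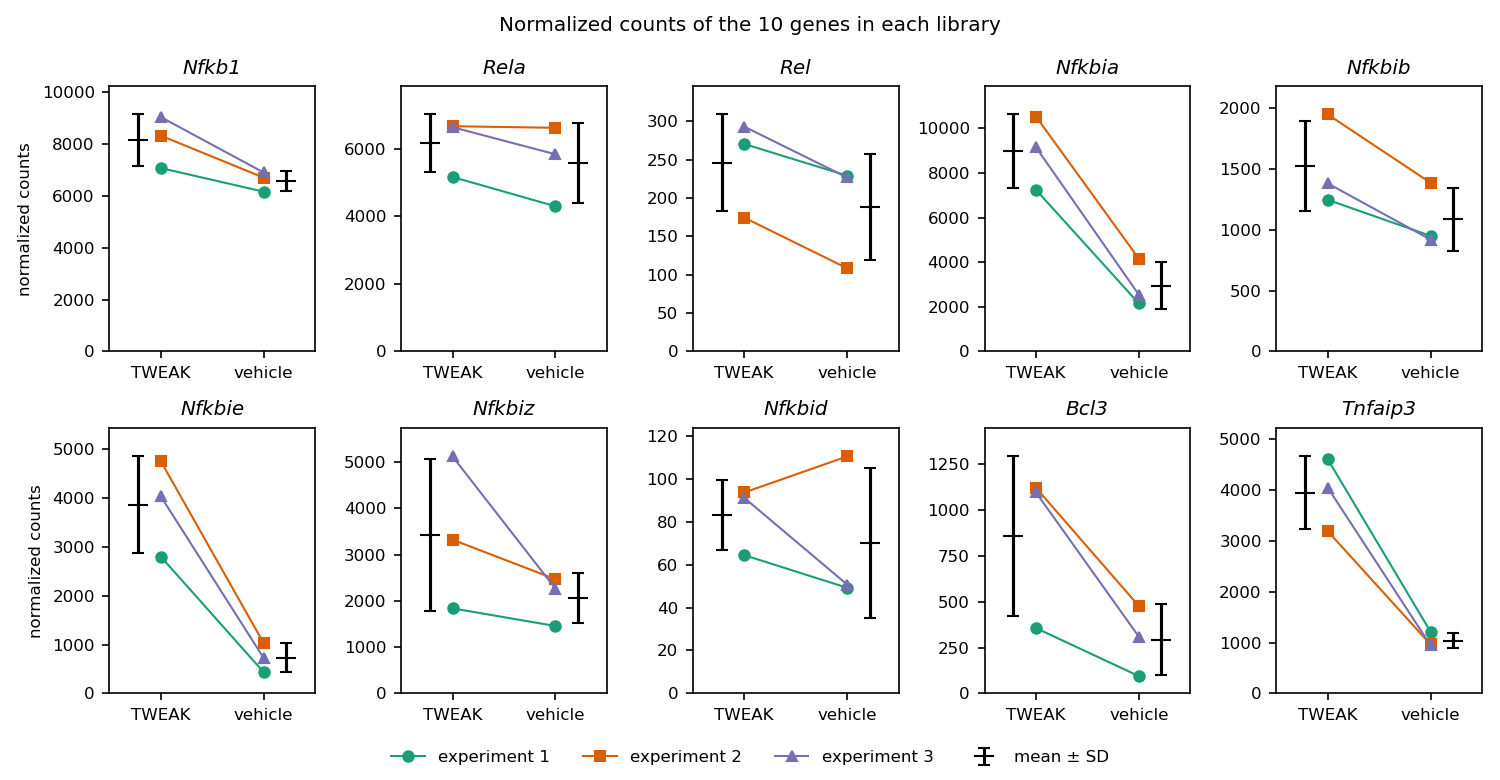
Normalized counts (vertical axes, each from 0) of the 10 genes in TWEAK libraries (left of each panel) and vehicle libraries (right), with lines joining the libraries of an experiment and black bars for the mean ± SD (n = 3). Nfkbia, Nfkbie and Tnfaip3 fell into separate groups, with TWEAK libraries at 2804 or more for Nfkbie and vehicle libraries at 1031 or less, while Rela and Nfkbid overlapped.

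Of the classical inhibitors, Nfkbia encodes IkB-alpha, the fast feedback inhibitor that is destroyed and made again in each round of signalling. It had 7244, 10528 and 9151 normalized counts in TWEAK libraries 1, 2 and 3, against 2152, 4158 and 2543 in the vehicle libraries. The groups were well apart, the lowest TWEAK library being above the highest vehicle library. Nfkbia rose by 1.65 on the log2 scale (SE 0.12, limma adjusted p = 0.0034, higher in 3 of 3 experiments), with 1.75, 1.34 and 1.85 in experiments 1, 2 and 3. Without the block the adjusted p was 0.125.

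Nfkbie encodes IkB-epsilon, an inhibitor known to follow IkB-alpha with a delay. Its values were 2804, 4760 and 4041 normalized counts with TWEAK and 436, 1031 and 726 with vehicle. It had the highest fold change of the 10 genes, and its groups did not overlap. Nfkbie rose by 2.45 on the log2 scale (SE 0.11, limma adjusted p = 0.00295, 0.115 without the block), and the single experiments gave 2.68, 2.21 and 2.48.

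Nfkbib encodes IkB-beta, an inhibitor known for weaker feedback control than IkB-alpha. It had 1245, 1946 and 1379 normalized counts with TWEAK, and 949, 1384 and 918 with vehicle. The groups overlapped, since the vehicle library of experiment 2 was above the TWEAK libraries of experiments 1 and 3, but within each experiment TWEAK was higher, by 0.39, 0.49 and 0.59 on the log2 scale. Nfkbib rose by 0.49 on that scale (SE 0.08, limma adjusted p = 0.0193, 0.646 without the block). The call was lost without experiment 1 (adjusted p = 0.0771) and without experiment 3 (0.179). In GENCODE M21 exons of Nfkbib overlap those of Sirt2 on the opposite strand. The series' design text names a stranded kit, but no source used here says whether reads were counted by strand. Reads of the pair could therefore have been mixed. Sirt2 itself had a log2 fold change of -0.23 (SE 0.08, limma adjusted p = 0.115).

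Setting the inhibitors against Rela inside each library removes the library's scaling. Nfkbia per kilobase was 2.41, 2.72 and 2.37 times Rela per kilobase in TWEAK libraries 1, 2 and 3, against 0.861, 1.08 and 0.749 times in the vehicle libraries. For Nfkbie this ratio was 0.605, 0.796 and 0.678 with TWEAK and 0.113, 0.174 and 0.139 with vehicle. The sum of the 3 classical inhibitors was 1.87 ± 0.225 times that of the 3 subunits with TWEAK and 0.723 ± 0.166 times with vehicle (SD, n = 3), all per kilobase of transcript. These ratios are of transcripts and say nothing of protein, and they were not tested.

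The make-up of the classical inhibitor transcripts also differed. Nfkbie made up 18.1%, 20.4% and 20.4% of their per-kilobase sum in TWEAK libraries 1, 2 and 3, against 8.94%, 11.3% and 12.7% in the vehicle libraries. Nfkbib made up 8.23% to 9.86% with TWEAK and 18.0% to 23.0% with vehicle. Nfkbia held the largest share in every library, at 69.7% to 72.3% with TWEAK and 68.1% to 70.6% with vehicle, and its groups overlapped.

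**Figure D2:**
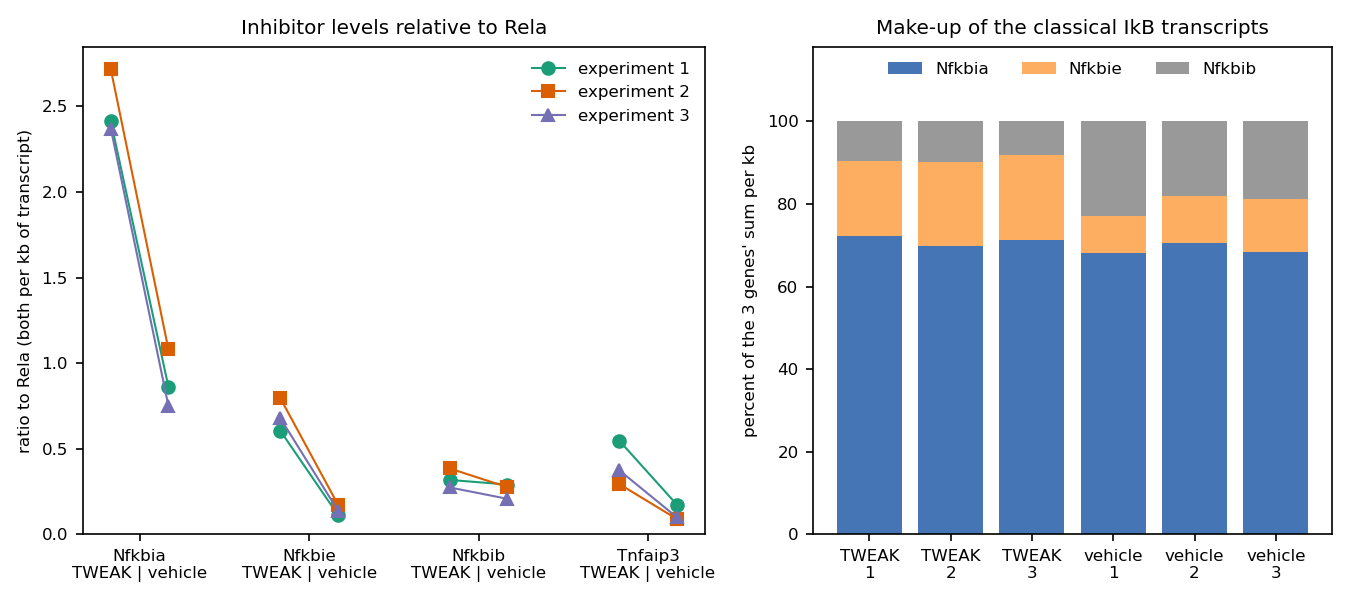
Left, levels of 4 inhibitor genes relative to Rela in the same library (both per kilobase of transcript; TWEAK left of vehicle, lines joining libraries of an experiment). Right, percent of the classical inhibitor sum per kilobase taken by each gene in the 3 TWEAK libraries and then the 3 vehicle libraries. Nfkbia stood at 2.37 to 2.72 times Rela with TWEAK and at 0.749 to 1.08 times with vehicle.

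The atypical IkB proteins act mainly in the nucleus, where they bind p50 or p52 dimers and can raise or lower transcription of chosen genes. Bcl3, which can turn dimers of p50 or p52 into activators, had 357, 1123 and 1097 normalized counts in TWEAK libraries 1, 2 and 3, against 94.5, 477 and 310 in the vehicle libraries. The groups overlapped, because both libraries of experiment 1 were low, but TWEAK was higher inside every experiment. Bcl3 rose by 1.65 on the log2 scale (SE 0.16, limma adjusted p = 0.00582, 0.577 without the block), with 1.91, 1.23 and 1.82 in experiments 1, 2 and 3. The vehicle libraries differed more among experiments for Bcl3 than for Tnfaip3. The macrophage and endothelial marker sums given above differed among the same experiments. Inside each experiment the endothelial and smooth muscle sums were lower and the fibroblast sum was higher with TWEAK. The macrophage sum was lower with TWEAK in experiments 1 and 2 and higher in experiment 3. The part of these cells in the Bcl3 values was not tested. In GENCODE M21 an opposite-strand gene, Gm16175, overlaps exons of Bcl3 and is not among the listed genes.

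Nfkbiz encodes IkB-zeta, a nuclear coactivator of a subset of NF-kB targets such as Il6. Its normalized counts were 1840, 3325 and 5126 with TWEAK and 1458, 2471 and 2267 with vehicle. The groups overlapped and the experiments were uneven, with log2 differences of 0.34, 0.43 and 1.18. Its estimate was 0.65 on the log2 scale (SE 0.18, 95% interval 0.20 to 1.09, limma adjusted p = 0.0741), and it was 0.38 without experiment 3. Nfkbiz was called in the authors' deposited table (log2 fold change 0.65, adjusted p = 0.00206), which was also made with DESeq2. It was called with DESeq2 here (0.00253) and with upper quartile scaling (0.0179, with 10.7% of all genes called higher). It was not called with edgeR (0.0920). Nor did limma call it with cyclic loess scaling (0.0541), with 10 added to the counts (0.0717) or with a minimum mean of 100 (0.0784). The same held without experiment 1 (0.133), 2 (0.389) or 3 (0.203) and without the block (0.798).

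Nfkbid encodes IkB-NS, a nuclear IkB protein known from lymphocytes and macrophages. It was the scarcest of the 10, with 64.4, 93.6 and 91.1 normalized counts in the TWEAK libraries and 49.2, 110 and 50.7 in the vehicle libraries. In experiment 2 the vehicle library was the higher one, which makes Nfkbid the 1 gene of the 10 whose direction was not shared by all 3 experiments. For this gene the estimate was 0.33 on the log2 scale (SE 0.26, 95% interval -0.33 to 0.98, limma adjusted p = 0.442), so a change of either sign was not resolved. The single experiments gave 0.38, -0.24 and 0.83. It moved to 0.61 without experiment 2 and to 0.07 without experiment 3, and was not called in either fit. The other 9 genes were higher with TWEAK in every experiment, as were 28.2% of all genes.

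Tnfaip3 encodes A20, which trims and adds ubiquitin on upstream signalling proteins and so limits activation of the IkB kinase. It had 4604, 3190 and 4045 normalized counts in TWEAK libraries 1, 2 and 3, against 1211, 962 and 945 in the vehicle libraries. The groups were far apart, and the vehicle libraries were close to each other. Tnfaip3 rose by 1.92 on the log2 scale (SE 0.09, limma adjusted p = 0.00295, 0.0602 without the block), with 1.93, 1.73 and 2.10 in the single experiments. Relative to Rela per kilobase, Tnfaip3 was at 0.547, 0.294 and 0.374 with TWEAK and at 0.173, 0.0892 and 0.0993 with vehicle.

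**Figure D3:**
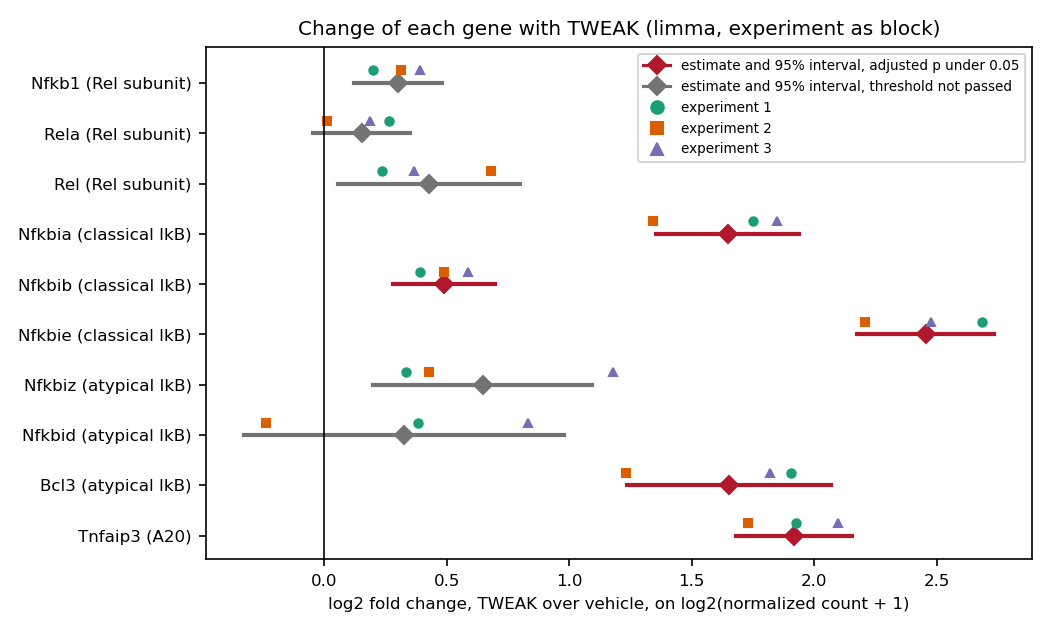
Log2 fold changes (TWEAK over vehicle, horizontal axis) of the 10 genes by role, with diamonds and bars for limma's estimate and its 95% interval and small symbols for the single experiments. Nfkbie, Tnfaip3, Bcl3 and Nfkbia lie at 1.65 or more, Nfkbib at 0.49, and the 3 subunits between 0.15 and 0.43.

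The authors' deposited table, made with DESeq2, called 7 of the 10 genes higher, where 10.8% of all genes were called higher in it. These were the 5 genes that rose above, Nfkb1 and Nfkbiz. Its log2 fold changes were 2.45 for Nfkbie, 1.92 for Tnfaip3, 1.65 for Nfkbia, 1.64 for Bcl3 and 0.49 for Nfkbib.

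The rest of the pathway was followed through 6 lists of genes, whose counts stand against the 8.11% of all genes that rose and the 5.55% that fell. Upstream, 3 of 20 genes of the IkB kinase complex and its kinases and adaptors rose and none fell, and the list's median log2 fold change was 0.05. Birc3 and Birc2, ubiquitin ligases recruited to TNF receptors, and Traf2, their adaptor, were these 3. Birc3 had 4460, 6698 and 6566 normalized counts with TWEAK and 1258, 1449 and 1236 with vehicle, a log2 fold change of 2.15 (SE 0.12, limma adjusted p = 0.00295). Birc2 rose by 1.95 (SE 0.27, limma adjusted p = 0.0121), unevenly, with 1.20, 2.68 and 1.98 in the experiments, and lost its call without experiment 2 (0.213). Traf2 rose by 0.45 (SE 0.08, limma adjusted p = 0.0236), a call lost without experiment 1 (0.126) or 3 (0.185). The kinase subunits themselves, named after their values were seen, did not pass: the log2 fold change was 0.18 for Chuk, 0.12 for Ikbkb and -0.07 for Ikbkg.

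Of 12 partners of A20 and other brakes on the kinase, 1 rose and none fell, the median log2 fold change being 0.16, and this count is close to the 8.11% of all genes that rose. This was Tnip1, which encodes ABIN-1, an A20-binding protein. Its normalized counts were 4538, 7655 and 6090 with TWEAK and 2444, 4131 and 3133 with vehicle, and it rose by 0.91 on the log2 scale (SE 0.07, limma adjusted p = 0.0034), with 0.89, 0.89 and 0.96 in the experiments. In this list 4 genes were called with DESeq2 (18.2% of all genes called in either direction), with upper quartile scaling (20.0%) and without experiment 2 (26.1%), and 3 with cyclic loess scaling (16.8%). Tnip3, a relative of Tnip1 named after its values were seen, had a log2 fold change of 1.94 and did not pass (limma adjusted p = 0.0686).

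Of 13 genes of the ubiquitin ligase that destroys IkB and of the kappaB-Ras proteins, 1 fell and none rose (median log2 fold change -0.06), a count near the 5.55% of all genes that fell. Leaving out an experiment left 0, 3 and 0 of the 13 called, without experiments 1, 2 and 3 in turn. In these fits 4.66%, 26.1% and 4.46% of all genes were called in either direction. The gene that fell was Nkiras2, which encodes a kappaB-Ras protein that binds IkB, with 1027, 1239 and 981 normalized counts with TWEAK and 1302, 1770 and 1353 with vehicle. It had a log2 fold change of -0.44 (SE 0.08, limma adjusted p = 0.0255), and the call was lost without experiment 1 (0.0894) or 3 (0.201). Of 16 genes of RelA coactivators, modifiers and terminators, 1 fell and none rose (median log2 fold change 0.10), which is again near 5.55%. The same leave-out fits called 0, 3 and 0 of these 16, against the same shares of all genes. The gene of this list that fell was Pdlim2, which encodes a nuclear ubiquitin ligase known to end RelA activity. Pdlim2 had 7385, 8458 and 7617 normalized counts with TWEAK and 9726, 12860 and 10698 with vehicle. It had a log2 fold change of -0.50 (SE 0.07, limma adjusted p = 0.0122), and its call was lost without experiment 1 (0.0535) or 3 (0.0882).

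In the non-canonical pathway, which processes the precursor of p52, 6 of 7 genes rose, where 8.11% of all genes did, and the median log2 fold change was 1.31. Nfkb2, the p52 precursor, rose by 1.81 (SE 0.07), Birc3 as given above, and Traf3, an adaptor that keeps the pathway off at rest, by 1.01 (SE 0.07), with limma adjusted p-values of 0.00276 for Nfkb2 and 0.00317 for Traf3. Birc2, Birc3 and Chuk, the gene that did not pass, also belong to the upstream list, so these counts share genes. Relb, named after its values were seen, rose by 0.95 (limma adjusted p = 0.00413). Nfkb1 and Rela, canonical relatives of Nfkb2 and Relb, stood at 0.30 and 0.15 in the same libraries. Traf3 had 7725, 7370 and 7854 normalized counts with TWEAK and 3854, 3791 and 3743 with vehicle, which differed little among experiments.

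Of 36 textbook targets of NF-kB outside the pathway, 32 were among the listed genes, and Il1b, Tnf, Nos2 and Bcl2a1b were not. With TWEAK 19 of the 32 rose and none fell, against 8.11% and 5.55% of all genes, and the median log2 fold change was 1.24. The matrix protease gene Mmp9 was the most changed by limma's adjusted p (log2 fold change 6.53, SE 0.23, limma adjusted p = 0.00276), followed by Traf1, an adaptor of TNF receptors (2.57, SE 0.14, 0.00295), and Irf1, a transcription factor of the interferon response (1.26, SE 0.08, 0.00295). Mmp9 had only 13.8, 10.4 and 8.06 normalized counts with vehicle, against 930, 1392 and 919 with TWEAK. Its log2 fold change was 5.70 when 10 and not 1 was added to the counts. Leaving out an experiment left 11, 14 and 12 of the 32 called, without experiments 1, 2 and 3 in turn, where 4.66%, 26.1% and 4.46% of all genes were called in either direction. Without the block, Mmp9 alone of the genes in the 6 lists passed (limma adjusted p = 0.00862).

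**Figure D4:**
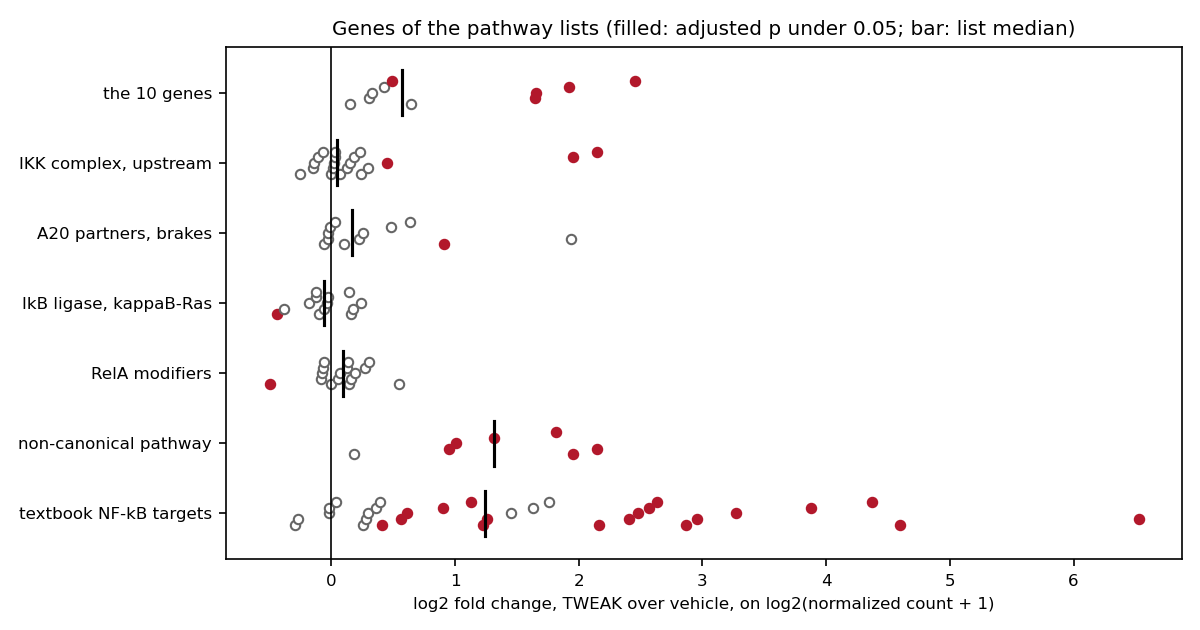
Log2 fold changes (TWEAK over vehicle, horizontal axis) of the 10 genes and of the genes of the 6 pathway lists, 1 point per gene, filled where limma's adjusted p was under 0.05, with a bar at each median. The medians are 0.05 for the upstream kinase list, 1.31 for the non-canonical list and 1.24 for the target list.

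The genes with the pattern most like those of the 2 most changed classical inhibitors were found among 12660 others with a mean of at least 100 normalized counts. The measure was the root mean square difference of log2 values, centred on each gene's mean, over the 6 libraries. For Nfkbia they were the histone genes Hist1h3g (0.034), Hist1h2ag (0.119) and Hist1h2ah (0.124). Hist1h3g had 1055, 1597 and 1316 normalized counts with TWEAK and 301, 611 and 369 with vehicle, but histone genes have near-identical copies and their reads may be split among these. For Nfkbie they were Mycl1 (0.147), which encodes the transcription factor L-Myc, Traf1 (0.221) and Tnfsf13b (0.238), which encodes the cytokine BAFF. Mycl1 had 1983, 3226 and 3384 normalized counts with TWEAK and 364, 731 and 639 with vehicle.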

How the data were processed

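Total RNA of 6 cultures was sequenced, with a stranded total RNA kit per the series' design text. DESeq2 is the tool named, without a version, per the submitters' processing notes. No source used here names the aligner, read counter, genome build or annotation. The authors deposited 1 table. Per the file headers it holds DESeq2 output of the authors: a mean, a log2 fold change with standard error, a Wald score, p-values raw and adjusted, and for each library a column of normalized counts. These counts are a signal the authors made by dividing read counts by 1 size factor per library. All columns were whole multiples of the value of 1 read (100% of values whole within 0.01), so reads were recovered.

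The comparison used limma 3.58.1 (R 4.3.3; empirical Bayes with trend and robust estimation, two-sided) on log2(normalized count + 1), with a minimum mean of 1 that all 14927 genes met. The experiment was a block. The headers number TWEAK and vehicle columns by experiment, and deviations from the group means correlated at 0.879, 0.868 and 0.734 for libraries of the same number and at -0.760 to -0.126 for others (across genes, which are not independent replicates). A gene's deviations cancel out within a group, so positive values for the same number bring negative ones for the others. Tests on recovered reads used edgeR 4.0.16 and DESeq2 1.42.0. No 2 libraries were duplicates (lowest chi-square per degree of freedom 90.7). Reads per library did not differ detectably (72757591 ± 9765673 with TWEAK, 69827451 ± 6136278 with vehicle, SD, n = 3; p = 0.8 by an exact permutation test, two-sided, whose smallest possible p is 0.1).

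Levels per kilobase used the longest protein-coding transcript of each gene in the GENCODE M21 basic set. The 10 genes, the lists and the tests were chosen with earlier results of these data known. Of each list, up to 3 called genes with the smallest adjusted p were named.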

Additional observations from a re-analysis of the deposited data

How the results depend on the processing

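The direction of the estimate of each of the 10 genes was the same under all alternatives run. Without the replicate block, limma called 0 of the 10 genes (3 at an unadjusted p under 0.05) and 3 of all 14927, with adjusted p-values of 0.0602 for Tnfaip3, 0.115 for Nfkbie, 0.125 for Nfkbia, 0.577 for Bcl3 and 0.646 for Nfkbib. With 1 experiment left out, 4 to 7 of the 10 and 666 to 3902 of all genes were called (666 without experiment 3, 695 without experiment 1). Each such fit dropped both libraries of the experiment. Under the other alternatives 5 to 7 of the 10 and 1744 to 2983 of all genes were called. The calls of Nfkbie, Tnfaip3, Nfkbia and Bcl3 held under every alternative with the block. Without a filter the fit was the same, since no gene had a mean under 1. Nfkbid has no value with a minimum mean of 100. The cause of these differences was not tested. Nfkbid, with 44 to 117 reads in a library, had the largest standard error of the 10 genes (0.26), and its estimate ran between 0.07 and 0.61 over the alternatives.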
